A study of Ovis aries with 6 samples.

Results

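Mitochondrial ribosomal proteins were followed in the somatic cells of sheep milk, in ewes fed a control diet and then a diet with linseed. The genes were taken by name: every symbol that begins with MRPL or MRPS and a number, which gave 54 of the 11285 gene symbols that could be matched to the deposited transcripts. Each gene was represented by the transcript with its highest mean value. Proteins of the large subunit made up 37 of the 54 genes and proteins of the small subunit 17. MRPS18A and MRPS30 carry small-subunit names but belong to the large subunit and were counted there. A further 21 genes of this kind in the sheep gene table, MRPL12 and MRPS18C among them, were not matched and were not analysed here.

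The mitochondrial ribosome, or mitoribosome, translates the few proteins that mitochondrial DNA encodes, all of them membrane subunits of the respiratory chain and the ATP synthase. Its RNAs come from mitochondrial DNA, whereas its proteins are encoded in the nucleus, made in the cytosol and imported. Some have counterparts in bacterial ribosomes and others occur only in mitochondrial ribosomes. Milk somatic cells are a mixture of shed mammary epithelial cells and leukocytes, and mammary epithelium in lactation has a high demand for respiration and protein synthesis.

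RNA came from 3 Comisana ewes, a dairy breed, recruited at 90 days of lactation. Each ewe gave a control library, on grass hay and a commercial concentrate, and a linseed library, after 3 weeks on grass, hay and a concentrate with 20% extruded linseed (dry matter). No allele, strain or drug distinguished the groups. Every ewe received linseed second, so diet and time cannot be told apart, and p-values measured only the spread among these 3 animals. Ewes are called sheep 1, 2 and 3. The samples are bulk RNA, in which fewer cells of a type and less RNA per cell cannot be told apart. Values are RPKM (read counts divided by transcript length and by library total), so levels of different genes can be compared per length. Changes are differences of log2(RPKM + 1), linseed minus control.

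The libraries held between 4941935 (linseed, sheep 1) and 22644050 reads (control, sheep 1), as solved from the steps in the RPKM values. The 54 genes held between 6144 and 30624 of these reads per library. Milk protein transcripts, which take their share of the RPKM from everything else, were 58.7%, 40.6% and 7.82% of the control RPKM and 34.8%, 28.8% and 1.87% of the linseed RPKM in sheep 1, 2 and 3. Their share was lower with linseed in every ewe. Leaving them out of the library totals moved the median change of all tested transcripts from -0.12 to -0.36. The summed RPKM of 6 neutrophil markers was higher in every linseed library (2198 to 3421) than in any control library (849.8 to 1568). The markers did not move together: S100A8 and S100A9, which neutrophils hold in quantity, were higher in all 3 ewes (1.85 and 2.28), as was CXCR2 (1.08), whereas ITGAM was lower in all 3 (-0.67), and LTF (-1.39), which milk epithelium also makes, and FCGR3A (0.24) were each higher in 1 ewe. The 10 macrophage markers measured summed to 117.4 to 1267 in control and 920.4 to 2101 in linseed, and the 5 epithelial markers to 166.9 to 608.2 in control and 44.4 to 1142 in linseed. Of the macrophage markers, TREM2 (3.73), C1QA (2.98), AIF1 (2.21) and CD68 (1.55) were higher in all 3 ewes. MRC1 (-1.61) and ITGAX (-0.61) were lower in all 3, and LYZ, MSR1 and CD14 were each higher in 1. Of the epithelial markers, EPCAM (-1.82), BTN1A1 (-1.65) and ELF5 (-1.10) were lower in all 3 ewes, and KRT8 (1.76) and CLDN3 (0.63) were each higher in 2. Sums of 8 T and NK cell markers were 7.42 to 544.4 in control and 60.8 to 130.1 in linseed, and those of 5 B and plasma cell markers 1.18 to 25.8 and 6.35 to 25.9. No marker was at 0 in every library. The part of milk protein share and cell mixture in the results that follow was not tested.

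All 54 genes were detected and passed the filter of a mean of at least 1 RPKM. Without regard to which ewe a library came from, no gene passed the test: 0 of 54 had an adjusted p below 0.05 (limma, Benjamini-Hochberg over 15891 transcripts), and 0% of all transcripts were called in either direction. The smallest adjusted p among the 54 was 0.263. At an unadjusted p below 0.05, 15 of the 54 were higher with linseed, against 8.5% of all transcripts, and 1, MRPS10, was lower, against 7% of all. With the ewe as a block, MRPL52 and MRPS25 rose and no member fell. This is 3.7% of the members called higher, against 1.28% of all transcripts called higher and 1.34% called lower. Both calls were lost when the blocked fit used quantile normalization, median-of-ratios scaling, a length correction or a pseudocount of 0.1. MRPL52 alone was called with the milk proteins left out of the totals and when sheep 1 was left out, and neither gene was called without sheep 2.

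Direction within ewes separated the genes into 3 sets. In all 3 ewes 21 of the 54 genes (38.9%) were higher with linseed, against 23% of all tested transcripts, and 4 (7.41%) were lower in all 3, against 26.2%. The higher count was 19 to 21 under the other scalings and filters, while the lower count moved to 1 with median-of-ratios scaling, 2 with quantile normalization and 7 with the milk proteins left out of the totals or with a length correction. The other 29 were mixed, and 28 of them were higher in sheep 3. In 17 genes every linseed library lay above every control library (31.5%, against 13.3% of all transcripts), and in 0 genes every linseed library lay below (against 7.83%). The median change of the 54 genes was 0.23, against -0.12 over all transcripts. It was -0.07 with the milk proteins left out of the totals, -0.01 without the linseed library of sheep 3 and 0.00 after a correction for transcript length.

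**Figure D1:**
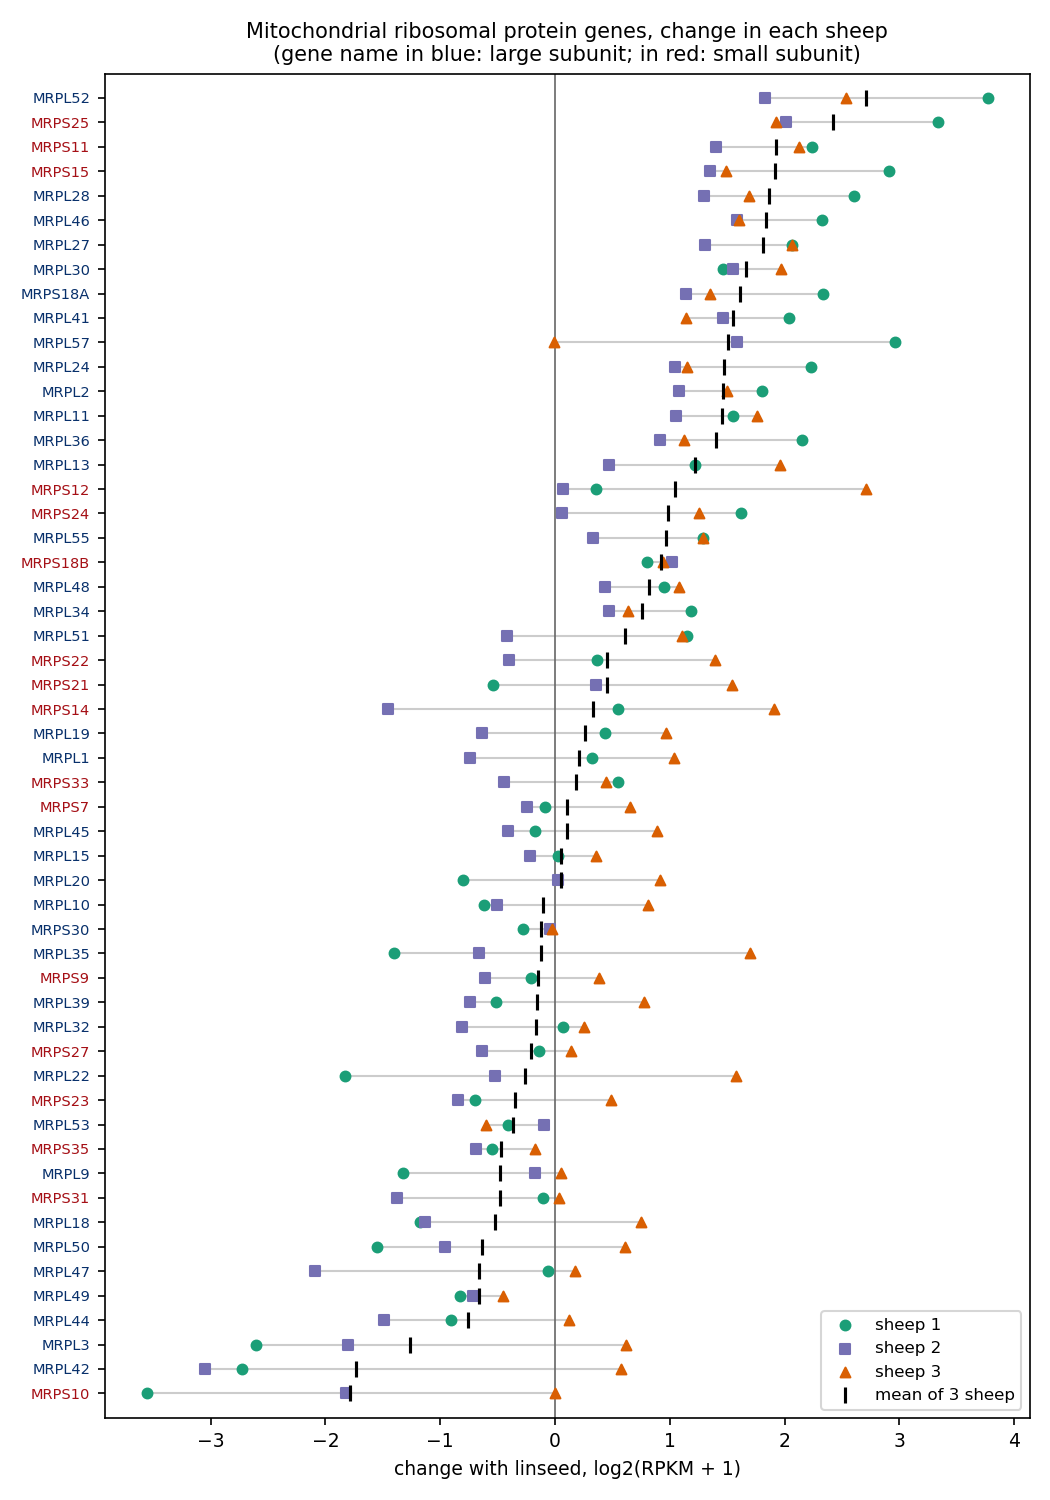
Change with linseed in log2(RPKM + 1) for each of the 54 genes (rows, ordered by their mean change), with 1 symbol per sheep and a black bar for the mean of the 3. The 21 genes higher in all 3 sheep fill most of the top of the plot, while in the lower rows most symbols of sheep 3 lie to the right of those of sheep 1 and 2.

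The 2 genes called with the block, MRPL52 and MRPS25, both encode proteins found in mitochondrial but not bacterial ribosomes. MRPL52, a large-subunit protein, had 25.1, 105.2 and 37.7 RPKM in the control libraries of sheep 1, 2 and 3 and 355.1, 376.0 and 223.0 in the linseed libraries. The lowest linseed value was above the highest control value, and MRPL52 was the most abundant of the 54 genes, with a mean of 187 RPKM. Its mean went from 56.0 ± 43.1 to 318 ± 82.9 RPKM (SD, n = 3 each), a 5.68-fold ratio, and its change was 2.71 ± 0.61 (SE with the block; limma adjusted p = 0.0441 with the block and 0.263 without). A second, shorter MRPL52 transcript had 4.98, 15.7 and 8.04 RPKM in control and 69.5, 44.9 and 59.9 in linseed, a change of 2.59.

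MRPS25, a small-subunit protein, had 5.34, 12.1 and 8.56 RPKM in control and 62.9, 52.0 and 35.2 in linseed. The groups did not overlap, and each ewe was higher with linseed, by 3.33, 2.01 and 1.92. Its change was 2.42 ± 0.55 (SE with the block; limma adjusted p = 0.0444 with the block and 0.263 without), a 5.77-fold ratio of the means. Length correction left the change of MRPS25 at 2.02 and that of MRPL52 at 2.11.

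Of the other genes whose groups did not overlap, MRPL27 and MRPL2 have bacterial counterparts at the peptidyl transferase centre, where peptide bonds are made. MRPL27 had 33.3, 51.6 and 19.0 RPKM in control and 142.6, 129.2 and 82.6 in linseed, a change of 1.81 ± 0.62 (SE). MRPL2 had 5.54, 7.90 and 4.62 RPKM in control and 21.8, 17.9 and 14.9 in linseed, a change of 1.46 ± 0.56. Both were higher in each ewe by at least 1 log2 unit, and neither passed the adjusted test. MRPL28, a large-subunit protein with a bacterial counterpart, had 8.03, 15.4 and 11.2 RPKM in control and 53.8, 39.2 and 38.2 in linseed (1.86 ± 0.58).

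MRPS15 and MRPS11 are small-subunit proteins whose bacterial counterparts bind the ribosomal RNA of the body and platform. MRPS15 had 15.8, 31.9 and 26.8 RPKM in control and 125.0, 82.9 and 77.2 in linseed, a change of 1.92 ± 0.59. MRPS11 had 7.11, 13.6 and 6.38 RPKM in control and 37.4, 37.6 and 31.3 in linseed, a change of 1.92 ± 0.58. In the sheep gene table MRPS11 stands next to MRPL46, which encodes a mitochondrion-specific protein of the central protuberance, the crown of the large subunit. MRPL46 had 2.29, 3.74 and 2.41 RPKM in control and 15.5, 13.2 and 9.34 in linseed, a change of 1.84 ± 0.56. The 2 neighbours thus had non-overlapping groups and changes of like size. Their limma adjusted p-values were 0.0600 and 0.0594 under the block and 0.263 for both without it. The difference between the 2 genes was not tested.

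MRPS18A and MRPS18B are related to a bacterial small-subunit protein but are counted here with the proteins particular to mitochondria, and only MRPS18B sits in the small subunit of the mammalian mitoribosome. MRPS18A had 16.2, 24.1 and 15.3 RPKM in control and 85.8, 54.4 and 40.6 in linseed, a change of 1.61 ± 0.59. MRPS18B had 13.6, 14.3 and 12.7 RPKM in control and 24.6, 30.0 and 25.3 in linseed, a change of 0.92 ± 0.55 that was 0.80, 1.02 and 0.94 in the 3 ewes. MRPS18B was therefore the tighter of the pair in both groups, with SDs of 0.794 and 2.96 RPKM against 4.88 and 23.2 for MRPS18A. MRPL41, a mitochondrion-specific large-subunit protein, had 13.7, 20.4 and 18.2 RPKM in control and 59.6, 58.2 and 41.4 in linseed (1.55 ± 0.57).

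The remaining non-overlapping genes were MRPL24, MRPL11, MRPL36, MRPL13, MRPL48 and MRPL34, all of the large subunit. MRPL24 lies by the exit of the peptide tunnel and MRPL11 at the base of the stalk that binds translation factors. Over all 17 genes the changes ran from 0.76 (MRPL34) to 2.71 (MRPL52), and the limma adjusted p-values without the block from 0.263 to 0.514. With the milk proteins left out of the totals, 11 of the 17 kept groups that did not overlap, and MRPL11, MRPL24, MRPL27, MRPL36, MRPL48 and MRPS18B did not. Under that scaling 5 other genes, MRPS10, MRPS30, MRPS35, MRPL9 and MRPL53, had every linseed value below every control value. The backgrounds were then 8.88% of all transcripts above and 18.5% below.

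**Figure D2:**
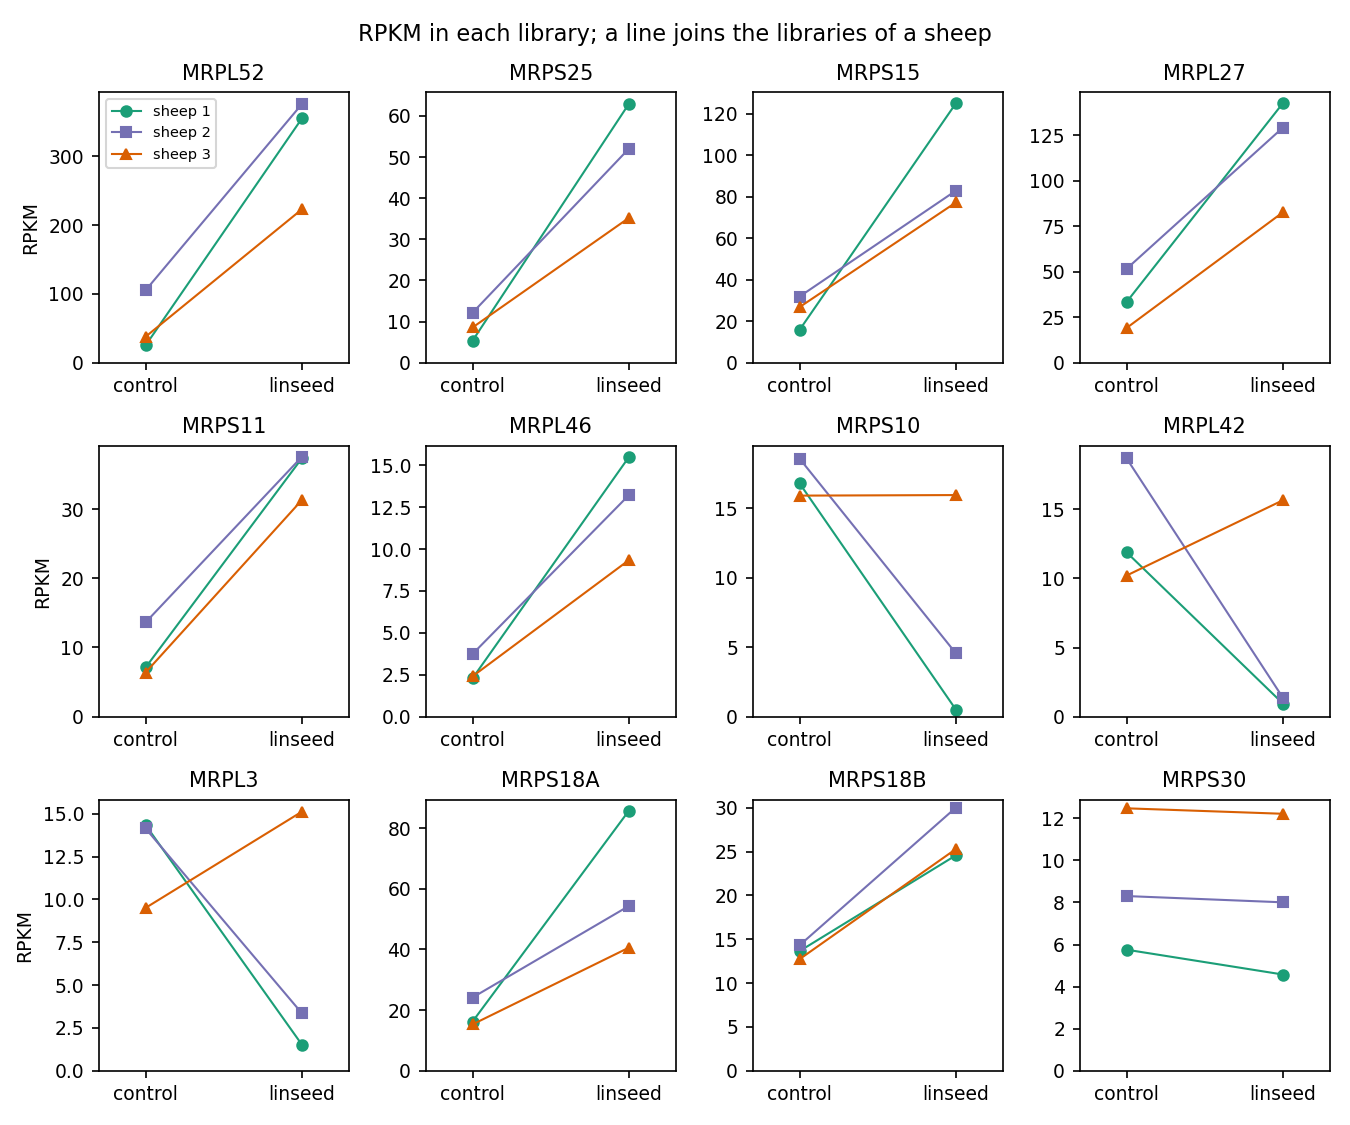
RPKM of 12 of the genes in each library, with a line joining the control and the linseed library of each sheep. For MRPL52, MRPS25, MRPS15, MRPL27, MRPS11, MRPL46, MRPS18A and MRPS18B each line goes up and the groups do not overlap. For MRPS10, MRPL42 and MRPL3 the lines of sheep 1 and 2 go down while that of sheep 3 is level or up.

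A second set of genes was low in the linseed libraries of sheep 1 and 2. MRPS10, a protein of the small-subunit head with a bacterial counterpart, had 16.8, 18.6 and 15.9 RPKM in control and 0.514, 4.56 and 16.0 in linseed. The linseed values rest on 4, 43 and 501 reads. The control libraries were close together, and sheep 3 was level (0.00), while sheep 1 and 2 were lower by 3.56 and 1.82 log2 units. The mean change of MRPS10 was -1.79 ± 0.81 (SE; limma adjusted p = 0.321).

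MRPL42, a mitochondrion-specific large-subunit protein, had 11.9, 18.7 and 10.2 RPKM in control and 0.952, 1.38 and 15.7 in linseed, where 4, 7 and 265 reads were counted. MRPL3, whose bacterial counterpart takes part in early assembly of the large subunit, had 14.4, 14.2 and 9.51 RPKM in control and 1.52, 3.35 and 15.1 in linseed. MRPL18, whose bacterial counterpart binds 5S RNA in the central protuberance, had 19.5, 18.8 and 13.8 RPKM in control and 8.04, 8.01 and 23.9 in linseed. In all 4 genes the linseed library of sheep 3 stood apart from the other linseed libraries and lay within or above the control range.

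These 4 were the members at least 1 log2 unit lower in both sheep 1 and sheep 2 (7.41%, against 10.4% of all transcripts), and all 4 were higher in sheep 3, a combination found in 2.53% of all transcripts. In MRPS10 this was by less than 0.01. When sheep 1 and 2 were fitted alone, with the ewe as a block, MRPL42 fell by 2.89, MRPS10 fell by 2.69 and MRPL3 fell by 2.20 (limma adjusted p = 0.0122, 0.0176 and 0.0302). The same libraries had set these genes apart, so the p-values are no separate test of the pattern. They also rest on only 2 ewes, which leave little to estimate the spread of a single gene. With sheep 3 kept in the blocked fit the limma adjusted p-values were 0.122, 0.102 and 0.207. MRPL42, MRPS10 and MRPL3 are 5.56% of the members, against 6.41% of all transcripts called lower in the fit of sheep 1 and 2. The 5 members that rose in it (9.26%, against 6.18% of all) were MRPL52, MRPS25, MRPL57, MRPS15 and MRPL46. MRPL57, a mitochondrion-specific large-subunit protein, had 8.75, 16.1 and 21.0 RPKM in control and 74.96, 50.2 and 20.8 in linseed, so that sheep 3 was level. Depth also differed among the linseed libraries: those of sheep 1 and 2 were the shallowest of the 6 and that of sheep 3 held 19912996 reads. Among the control libraries, MRPS10 and MRPL42 were highest in the shallowest, that of sheep 2 (8805705 reads). MRPL3 and MRPL18 were highest in the deepest, that of sheep 1. The part of depth was not tested.

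The 54 genes as a whole also stood differently in the 3 ewes. In sheep 3, 49 genes were higher with linseed (90.7%, against 42.5% of all transcripts), in sheep 1, 30 were (55.6%, against 50.5%), and in sheep 2, 24 were (44.4%, against 51.3%). The median change was 0.34, -0.19 and 0.95 in sheep 1, 2 and 3, where all transcripts had medians of 0.02, 0.03 and -0.22. At least 1 log2 unit lower were 8 genes in sheep 1 (14.8%, against 25.4% of all transcripts), 8 in sheep 2 (14.8%, against 16.2%) and 0 in sheep 3 (against 25.2%). At least 1 log2 unit higher were 20, 15 and 26 genes (37.0%, 27.8% and 48.1%, against 25.9%, 18% and 15% of all). Across the 54 genes the changes of sheep 1 and 2 had a Pearson correlation of 0.86, those of sheep 1 and 3 of 0.53 and those of sheep 2 and 3 of 0.54. Over all transcripts these were 0.64, 0.37 and 0.30, and the genes in a pair of ewes share the same 4 libraries.

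Lower in all 3 ewes were MRPL49, MRPS35, MRPL53 and MRPS30, all without a bacterial counterpart, and none passed the test. MRPL49, a large-subunit protein, had 16.2, 24.8 and 76.9 RPKM in control and 8.73, 14.7 and 56.1 in linseed, so that both libraries of sheep 3 were far above the others. MRPS35, in the head of the small subunit, had 3.96, 7.12 and 6.31 RPKM in control and 2.40, 4.04 and 5.49 in linseed. MRPS30, a large-subunit protein, had 5.76, 8.31 and 12.5 RPKM in control and 4.57, 8.01 and 12.2 in linseed, a change of -0.12 ± 0.61. In each of the 4 genes the range over ewes within either diet exceeded the difference between the diet means, and the groups overlapped. The sign for MRPS30 turned without the control library of sheep 3 (0.14) or the linseed library of sheep 1 (0.21).

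Other large-subunit genes with lower means were MRPL44 (-0.76 ± 0.68), which has a fold of the ribonuclease III family, MRPL47 (-0.66 ± 0.74), near the tunnel exit, MRPL50 (-0.63 ± 0.68) and MRPL9 (-0.48 ± 0.64). MRPL44 was the least abundant gene, with 3.03, 3.49 and 5.94 RPKM in control and 1.16, 0.598 and 6.54 in linseed. Each of these 4 was above its own control in sheep 3. The signs of MRPL47 without sheep 2 (0.06) and MRPL9 without the linseed library of sheep 1 (0.05) turned.

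Means over the 6 libraries ran from 3.46 RPKM for MRPL44 to 187 for MRPL52, with a median of 13.1. After MRPL52 the highest were MRPL27 (76.4), MRPS15 (59.9), MRPS18A (39.4) and MRPL20 (38.6). MRPL20, whose bacterial counterpart is needed for assembly of the large subunit, had 37.9, 45.6 and 27.4 RPKM in control and 21.4, 46.6 and 52.6 in linseed. Its groups overlapped fully, and its change of 0.05 ± 0.61 turned to -0.28 with the milk proteins left out and to -0.16 with quantile normalization. The lowest after MRPL44 were MRPS35 (4.89), MRPL32 (5.06), MRPS27 (6.09) and MRPL19 (7.17), with changes of -0.47, -0.16, -0.21 and 0.26. MRPL32 is matured by an inner-membrane protease, and MRPS27 is an RNA-binding protein of the small subunit. For MRPL32, MRPS27 and MRPL19 the sign depended on which library or ewe was left out.

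By place in the ribosome, the 6 central protuberance genes had a median change of 0.90, with 4 higher in all 3 ewes and 0 lower. The 11 genes of the large-subunit core had a median of 0.76, with 6 higher in all 3 ewes and 0 lower. The 9 genes of the small-subunit body and platform had a median of 0.92, with 5 higher and 0 lower, and the groups of 4 did not overlap. The 8 genes of the small-subunit head had a median of -0.02, with 1 higher (MRPS24) and 1 lower (MRPS35), and the groups of 0 were apart. The 4 tunnel-exit genes had a median of -0.08. They include MRPL45, which tethers the ribosome to the inner membrane and had a change of 0.10 ± 0.58. The 3 stalk genes were MRPL11 (1.46 ± 0.63), MRPL10 (-0.10 ± 0.61) and MRPL53 (-0.37 ± 0.60). Median changes of the large and small subunit were 0.21 and 0.33, and 0.00 and -0.12 after the correction for transcript length. With that correction the medians of the protuberance, core, body and platform, head and tunnel exit were 0.52, 0.50, 0.60, -0.22 and -0.28. Genes with a bacterial counterpart (31) had 14 higher in all 3 ewes and 0 lower, and those particular to mitochondria (23) had 7 higher and 4 lower. Higher in all 3 ewes were thus 66.7% of the protuberance, 54.5% of the core, 55.6% of the body and platform and 12.5% of the head genes. With and without a bacterial counterpart the shares were 45.2% and 30.4%. Over all tested transcripts 23% were higher in all 3 ewes and 26.2% lower, and in 13.3% every linseed library lay above every control library. Differences between these small sets were not tested.

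Change went with transcript length among the 54 genes. The transcripts were 408 to 3719 nt long, and their median length was 1062 nt, shorter than the 2297 nt over all tested transcripts. Pearson's correlation of log2 length with the change was -0.52 over the 54 genes and -0.32 over all transcripts, all from the same 6 libraries. The 27 shorter transcripts (408 to 1021 nt) had a median change of 1.22, with 16 higher in all 3 ewes and 0 lower. The 27 longer ones (1103 to 3719 nt) had a median of -0.12, with 5 higher and 4 lower. Among the 2233 transcripts with lengths between the quartiles of the members (884 to 1386 nt), the median was 0.31, 33.9% were higher in all 3 ewes, 14.0% were lower, and in 21.9% every linseed library was above every control library. These shares lie between those of all transcripts and the 38.9%, 7.41% and 31.5% of the members. The comparison is not matched: these transcripts had a median length of 1152 nt, and members shorter than 884 nt or longer than 1386 nt fall outside their range. Of these 2233 transcripts, 355 were higher at an unadjusted limma p below 0.05 without the block, where 15 of the 54 members were. With the block, 53 of the 2233 and 2 of the 54 were called higher. The part of transcript length in the members' values was not tested. Within ewes, 64.3%, 57.6% and 59.9% of the transcripts of such length were higher with linseed in sheep 1, 2 and 3. The members, at 55.6%, 44.4% and 90.7%, lay below these shares in sheep 1 and 2 and above in sheep 3.

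**Figure D3:**
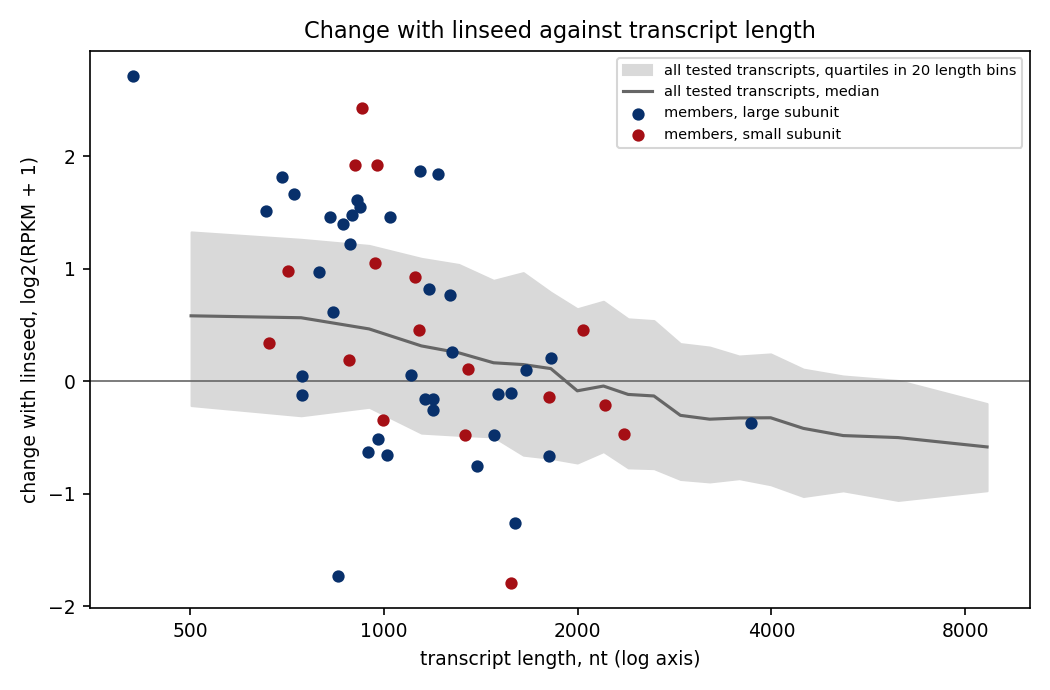
Change with linseed in log2(RPKM + 1) against transcript length on a log axis, for the 54 genes (points, by subunit) and for all tested transcripts (line, median, and band, quartiles, of 20 length bins). The line goes down with length, and MRPL52 and MRPS25 lie far above the band, while MRPS10, MRPL42 and MRPL3 lie below it.

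As a share of all RPKM, the 54 genes were 0.0701%, 0.121% and 0.130% of the control libraries and 0.143%, 0.169% and 0.216% of the linseed libraries. Each linseed share was above every control share, and the means were 0.107% ± 0.0321 and 0.176% ± 0.0372 (SD, n = 3 each). A two-sided exact permutation test gave p = 0.1 with the libraries taken as unpaired and 0.25 with each ewe as a pair, in each case the smallest that the test allows, so neither of these tests can reach 0.05. Without the milk proteins in the total the shares were 0.170%, 0.204% and 0.141% in control and 0.219%, 0.238% and 0.220% in linseed, again without overlap and with the same exact permutation p-values. Without MRPL52 the difference of the means went from 0.0692 to 0.0413 percentage points, the mean shares were 0.0996% and 0.141%, and the groups overlapped. The median RPKM of the 54 genes was 8.46, 16.1 and 10.7 in control and 11.8, 13.7 and 19.8 in linseed, so it was lower with linseed in sheep 2.

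**Figure D4:**
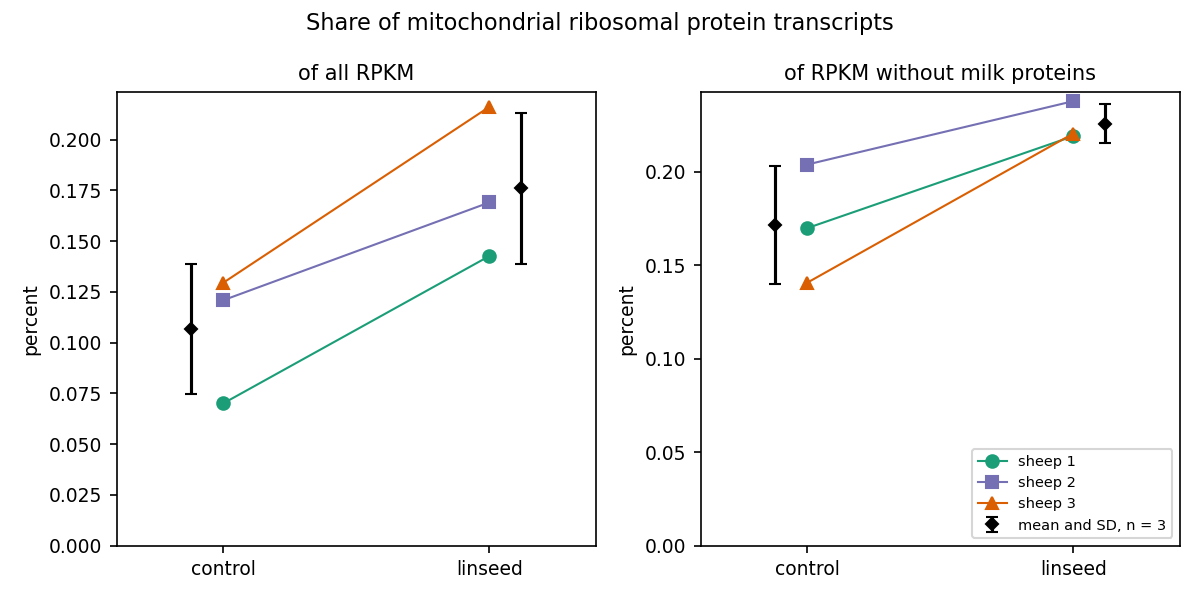
Share of library RPKM held by the 54 genes, in percent, of all RPKM (left) and of RPKM without the milk proteins (right), with a line for each sheep and diamonds with bars for the mean and SD of 3 libraries. In both panels each sheep goes up with linseed and the linseed values lie above the control values.

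A second transcript or more was listed for 15 of the 54 genes, 24 in all, of which 20 were tested. The change had the same sign as that of the main transcript in 17 of the 20 and the opposite sign in 3, 2 of MRPL22 and 1 of MRPS33. How reads were divided between transcripts of a gene is not given in the sources used here, so single-transcript values of these genes are uncertain. For MRPL42 the sum over 3 transcripts was 26.4, 32.0 and 16.8 RPKM in control and 4.74, 9.27 and 24.7 in linseed, a change of -1.13 ± 0.68 in place of -1.73 ± 0.81. For MRPS10 the summed change was -1.62 ± 0.78. MRPL22, near the tunnel exit, had a main transcript at 3 reads in the linseed library of sheep 1, and its change turned from -0.26 to 0.33 when its transcripts were summed.

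Other genes of mitochondrial translation are given as counts, and without the block none of them passed the test. Over all tested transcripts 23% were higher and 26.2% lower in all 3 ewes. Of 5 mitoribosomal proteins under other names, 3 were higher in all 3 ewes. GADD45GIP1, a large-subunit protein, had 1.69, 5.04 and 4.18 RPKM in control and 34.0, 17.1 and 9.02 in linseed (2.08 ± 0.66), and AURKAIP1, a small-subunit protein, had 14.7, 24.04 and 24.6 in control and 64.8, 63.4 and 75.3 in linseed (1.67 ± 0.57). The groups did not overlap in either gene. DAP3 and PTCD3, both of the small subunit, had changes of -0.24 and -0.01. Of 19 assembly and rRNA modification genes, 7 were higher and 4 lower in all 3 ewes, with a median of 0.27. Among them were MPV17L2, which binds the large subunit (1.15 ± 0.57, higher in 3 of 3 ewes), MTG1, a GTPase of large-subunit assembly (1.12 ± 0.59, higher in 3 of 3), and MALSU1, an assembly factor of the large subunit (1.62 ± 0.78, higher in 2 of 3). The 4 that were lower in all 3 ewes were GTPBP10, another GTPase of large-subunit assembly (-1.06 ± 0.59), LRPPRC, which binds mitochondrial mRNA (-0.72 ± 0.59), TFB1M, a methyltransferase of the small-subunit rRNA (-0.62 ± 0.59), and TRUB2, of the pseudouridine synthase family (-0.25 ± 0.58). Of 8 translation factors, 3 were higher in all 3 ewes and 0 lower: MRRF, the recycling factor (0.56), GUF1, an elongation factor (0.61), and MTIF3, an initiation factor (0.65). Of 8 matched genes listed with the mitochondrial tRNA synthetases, 3 passed the filter. These were QRSL1, YARS2 and RARS2, with changes of -0.65, 0.38 and 0.13.

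Of 6 genes that keep and transcribe mitochondrial DNA, 0 were higher and 2 lower in all 3 ewes, with a median of -0.43. The lower share was 33.3%, and over all tested transcripts 23% were higher and 26.2% lower. TFB2M, a transcription initiation factor of mitochondrial DNA, had 6.87, 3.37 and 3.65 RPKM in control and was listed at 0 in sheep 1, with 0.531 and 2.02 in sheep 2 and 3, in linseed, so that every linseed value was below every control value (-1.70 ± 0.59). TWNK, the helicase of mitochondrial DNA, and MGME1, a nuclease of its replication, had changes of -0.60 and -0.47. Of 4 matched regulators of mitochondrial biogenesis, 2 passed the filter. Both were lower in all 3 ewes, MYC with a change of -1.18 ± 0.61 and GABPB1 with -0.82 ± 0.55. Neither passed the test.

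Nuclear genes of oxidative phosphorylation, whose partners the mitoribosome makes, had 21 of 46 higher in all 3 ewes and 0 lower, with a median of 0.69 and ewe medians of 0.96, -0.04 and 1.46. With the block 2 of them rose, NDUFS8 and NDUFA13, both of complex I (limma adjusted p = 0.0461 and 0.0496), where 1.28% of all transcripts were called higher. Neither passed in the blocked fits with quantile normalization, median-of-ratios scaling, a pseudocount of 0.1 or a length correction, and with the milk proteins left out NDUFS8 alone did. Like the mitoribosomal genes, they had their lowest median in sheep 2 and their highest in sheep 3. Cytosolic ribosomal proteins, which make up the ribosomes of the cytosol, had 40 of 63 higher in all 3 ewes and 1 lower, with a median of 0.99 and ewe medians of 2.12, 0.22 and 0.74, so their highest median was in sheep 1. Mitochondrial import and matrix genes had a median of -0.19, with 2 of 11 higher and 2 lower in all 3 ewes. Higher in all 3 ewes were thus 45.7%, 63.5% and 18.2% of these lists, against 23% of all transcripts. The lower shares were 0%, 1.59% and 18.2%, against 26.2%. These lists also differ in length, with median transcripts of 688.5 nt for oxidative phosphorylation and 619 nt for cytosolic ribosomal proteins.

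**Figure D5:**
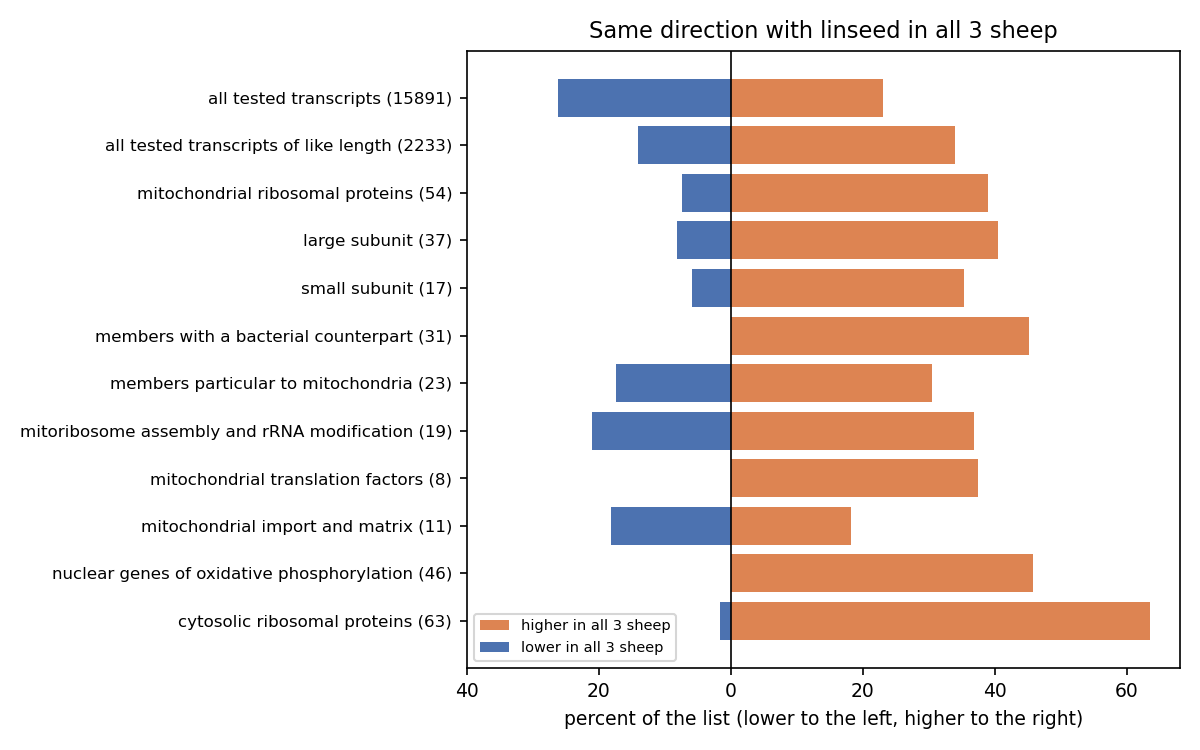
Percent of each gene list that was higher (right) or lower (left) with linseed in all 3 sheep, with the number of genes tested in brackets. The mitochondrial ribosomal proteins stand at 38.9% higher and 7.41% lower, all tested transcripts at 23% and 26.2%, and transcripts of like length at 33.9% and 14.0%.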

How the data were processed

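RNA-seq of 6 libraries was analysed from 1 table of RPKM values for 49705 RefSeq transcripts that the authors deposited, 31.9% of which were matched by identifier to a gene symbol (RefSeq gene table of sheep, used for names and neighbours only). The submitters' processing notes name Trimmomatic 0.33. Not given in the sources used here are the genome build, the aligner and how reads were counted. Groups come from the letter in each title, read with the series design. Changes were tested with limma 3.58.1 (R 4.3.3, eBayes with trend) on log2(RPKM + 1) over the 15891 transcripts that averaged 1 RPKM or more, with Benjamini-Hochberg adjustment and a threshold of 0.05. Simulated data were used to check the solving of reads and the fit without the block. The fit with the ewe as a block was not checked in this way.

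The same animals stood under the same numbers in both groups, so the ewe was used as a block in a second fit. Deviations of the same ewe correlated at 0.18, 0.25 and 0.40, and control 1 with linseed 2 at 0.24. Whole reads and transcript lengths were solved from the RPKM steps to within 0.002 reads. Named members were up to 10 with the smallest p in each direction, the 5 highest and 5 lowest by mean RPKM, the MRPS18 genes, MRPS30 and MRPL12, and up to 3 genes of smallest p in each related mitochondrial list; others named in the text were chosen after their values were seen. The members and lists were chosen with earlier results of these data known. Alternatives covered scaling, filter, pseudocount, length, whole reads (voom), summed transcripts and each library or ewe left out. A planned count of promoter motifs was not run.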

Additional observations from a re-analysis of the deposited data

How the results depend on the processing

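Without the ewe as a block, 0 members and 0 transcripts passed the limma test under every scaling, filter, pseudocount, length correction, whole-read fit and left-out library tried, the smallest adjusted p of a member running from 0.0755 (without the linseed library of sheep 3) to 0.731. With the replicate block 2 members and 416 transcripts passed. The blocked fits with milk proteins left out of the totals, chosen after seeing the data, gave 1 member and 634 transcripts. Leaving out 1 ewe in the blocked fit gave 0 to 8 members and 173 to 2000 transcripts, the highest without sheep 3 in both cases. The blocked fits with quantile normalization, median-of-ratios scaling, pseudocount 0.1 (these 3 chosen after seeing the data) or length correction gave 0 of both. The cause was not tested.

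The median change of the members, 0.23, ran from -0.10 (without sheep 3) to 0.64 (without the control library of sheep 2), and members above 0 from 44.4% to 77.8%. Above 0 were 33 members (61.1%) in the fit without the block, 26 (48.1%) with milk proteins left out of the totals and 27 with length correction. Under the settings that could give them, 19 to 21 members were higher in all 3 ewes and 1 (median-of-ratios scaling) to 7 (milk proteins left out, or length correction) were lower in all 3, against 21 and 4 in the fit without the block. Such a count cannot be had with a library left out, and the block does not alter it.

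Of 596 alternative values of the 26 named members, 560 kept direction and side of the threshold, 11 passed it and 25 turned sign, in 7 members whose change was at most 0.66 in size. MRPL20 turned to -0.16 with quantile normalization, -0.28 with milk proteins left out of the totals and -0.41 with length correction, each alike with the replicate block. MRPL19 turned to -0.035 with milk proteins left out, with or without the block, and MRPL32 to 0.025 on whole reads. With a library or ewe left out, MRPL20 ran from -0.38 to 0.47, MRPL19 from -0.099 to 0.70, MRPL32 from -0.52 to 0.16, MRPS30 from -0.42 to 0.21, MRPS27 from -0.57 to 0.071, MRPL9 from -0.87 to 0.049 and MRPL47 from -1.26 to 0.059. Depth limits the low values: 5 members had fewer than 10 reads in a library.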
